A study of Homo sapiens with 13 samples.

Results

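The genes described here are ACTA2 and 8 further genes of the actin cytoskeleton, measured by RNA sequencing in HuT78 cells. HuT78 is an established human T cell line derived from Sézary syndrome, the leukaemic form of cutaneous T cell lymphoma. The genes were found by their symbols in the deposited count table, where they made up 9 of 45744 genes: ACTA2, ACTB, ACTG1, PFN1, CFL1, TPM3, TPM4, MYL12A and MYL6. They were picked because ACTA2 reads were abundant in these T cells and were higher with chaetocin than with romidepsin, so those values are given as a description and carry no test. The 13 libraries came from cells exposed for 72 hours to 1 of 4 conditions. Chaetocin, a fungal product that inhibits histone lysine methyltransferases, was given at 10 nM (4 libraries, replicates 1 to 4). F5446, a compound known here by its code name, was also given at 10 nM (3 libraries, replicates 2 to 4). Romidepsin, a histone deacetylase inhibitor in clinical use for T cell lymphoma, was given at 1 µM (4 libraries, replicates 1 to 4), and DMSO was the solvent control (2 libraries, replicates 1 and 4). All libraries are of this cell line, and the labels do not say whether replicates were separate cultures, so the p-values speak only of the spread among these libraries, which may be technical. The labels' treatment field gives the F5446 libraries consecutive code numbers, and the titles, which all read F5446, were followed.

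Actin is the protein of the microfilaments that shape a cell and carry its movement. In lymphocytes, beta-actin (ACTB) and gamma-actin (ACTG1) form these filaments, which drive migration and the contact a T cell makes with its target. ACTA2 encodes the alpha-actin of vascular smooth muscle and is widely used as a marker of smooth muscle and of myofibroblasts. Profilin (PFN1) hands actin monomers to growing filaments, and cofilin (CFL1) severs old ones. The tropomyosins TPM3 and TPM4 lie along the filament, and MYL12A and MYL6 are the regulatory and the essential light chain of nonmuscle myosin II. Transcription of many actin genes is driven by serum response factor (SRF), which binds a short sequence called the CArG box, with cofactors (MRTFA, MRTFB) that are held back by actin monomers.

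The sequences before the gene starts are shown because the actins differ in them. They were taken from RefSeq (GRCh38.p14), are written 5′ to 3′ on the gene's own strand, and end at the last base before the start. Capitals mark a CArG box or a near match, which differs from one by 1 letter between its outer CC and GG, searched on both strands. Changes in the outer CC or GG were not searched. ACTA2 has an internal start at chr10:88952774-88952923 (minus strand) and a distal start at chr10:88991338-88991487 (minus strand). ACTG1 is at chr17:81512800-81512949 (minus strand). ACTG2, the enteric smooth muscle actin, at chr2:73892858-73893007 (plus strand), is not among the 9 genes and is shown as the nearest relative with reads here.
ACTA2 internal start: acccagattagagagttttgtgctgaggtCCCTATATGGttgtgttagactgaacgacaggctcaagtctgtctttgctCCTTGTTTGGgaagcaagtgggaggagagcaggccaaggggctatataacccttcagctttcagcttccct
ACTA2 distal start: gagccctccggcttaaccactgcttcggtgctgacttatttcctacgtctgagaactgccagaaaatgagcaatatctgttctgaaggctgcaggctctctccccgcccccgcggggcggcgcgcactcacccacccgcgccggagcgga
ACTG1: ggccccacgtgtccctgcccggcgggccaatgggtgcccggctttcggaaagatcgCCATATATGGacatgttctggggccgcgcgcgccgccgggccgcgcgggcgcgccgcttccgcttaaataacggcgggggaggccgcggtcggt
ACTG2: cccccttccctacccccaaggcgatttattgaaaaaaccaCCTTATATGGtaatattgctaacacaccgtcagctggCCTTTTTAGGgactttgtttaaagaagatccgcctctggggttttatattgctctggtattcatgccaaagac
The internal ACTA2 start had 2 sequences 1 letter away from the box, beginning 121 and 71 bases before it, and the distal start had neither a box nor a near match in the 250 bases searched. ACTG1 had a full box beginning 94 bases before its start, and ACTG2 had 2, at 110 and 73 bases. Of 35116 RefSeq promoter windows of 250 bases, 1.16% held a full box and 7.04% held a full box or a near match. Of the 9 genes, 8 were in the RefSeq table (ACTB was not), 2 had a full box (ACTG1 and TPM4) and 4 had a box or a near match at 1 of their starts. A match is only a description of the letters. The deposited counts are per gene, so reads from the ACTA2 starts cannot be separated.

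The libraries held between 19901052 and 30816188 counted reads, of which the 9 genes took 1.34% to 1.72%. Levels are given as CPM, the gene's reads scaled to a fixed normalised library size. Chaetocin replicate 3 stood apart, with 15.9% of its counts on mitochondrially encoded genes against 5.22% to 12.7% in the other libraries. Between the set of libraries numbered 1 and 2 and the set numbered 3 and 4, compared within treatment, edgeR called 15.8% of all genes tested. DMSO had 1 library in each set, and F5446 had 1 in the first. Values within these sets, or without chaetocin replicate 3, are given beside the main differences described. Of 13 T cell marker genes in the file, 11 had a mean of at least 5 CPM, and their summed level was 1096 to 1717 CPM across libraries. B cell and myeloid markers summed to 43.1 to 94.7 CPM.

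Among the actins, gene length was needed to set levels side by side, and CPM was divided by the summed exon length of each gene (GENCODE 29, a later gene set than the one used for counting). ACTG1 was the highest actin, with group means of 2179 to 2377 CPM per kilobase, followed by ACTB at 746 to 870 CPM per kilobase. ACTG2 reached 336 to 367 CPM per kilobase and ACTA2 149 to 252 CPM per kilobase. The skeletal muscle actin ACTA1 had 3 reads in all 13 libraries together, and the cardiac actin ACTC1 had none. Both smooth muscle actins were thus detected in every library, below the 2 cytoplasmic actins per length. Of the other genes, PFN1 stood at 950 to 1224 CPM per kilobase, CFL1 at 173 to 241, MYL12A at 146 to 170, TPM3 at 76.5 to 85.0, TPM4 at 61.7 to 74.3 and MYL6 at 33.3 to 40.3, all as group means on the same scale.

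**Figure D1:**
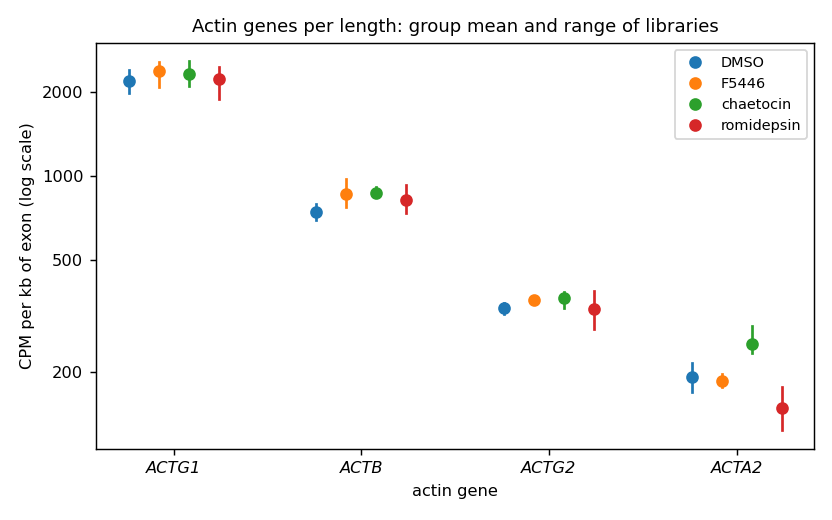
Group mean level of ACTG1, ACTB, ACTG2 and ACTA2 in CPM per kilobase of summed exon length (vertical axis, log scale) in each treatment, with bars from the lowest to the highest library. The order of the 4 genes was the same in every treatment, with ACTG1 highest and ACTA2 lowest.

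The markers that accompany ACTA2 in smooth muscle were mostly near 0. Of 10 smooth muscle markers in the file, 2 had a mean of at least 5 CPM in these cells, ACTG2 and SMTN (smoothelin), and 1 was at 0 in all libraries. Their summed level, almost all of it from ACTG2, was 1265 to 1363 CPM across the DMSO libraries, 1314 to 1501 with chaetocin, 1367 to 1456 with F5446 and 1111 to 1507 with romidepsin. Of the 7 tested smooth muscle markers, 2 were above DMSO with chaetocin (median log2 difference -0.08), 3 with F5446 (-0.20) and 3 with romidepsin (-0.00). Compared with F5446, 4 were higher with chaetocin (0.02) and 3 with romidepsin (-0.03). Between chaetocin and romidepsin, 2 were higher with chaetocin (-0.33), and none was called. Of 12 fibroblast markers, 4 had a mean of at least 5 CPM (THY1, COL1A1, PDGFRB and FN1), and the list summed to 159 to 191 CPM with DMSO, 175 to 210.4 with chaetocin, 151 to 203 with F5446 and 171 to 197 with romidepsin. The chaetocin range overlapped that of every other group for both lists. Of the 6 tested fibroblast markers, 5 were above DMSO with chaetocin (median log2 difference 0.32), 5 with romidepsin (0.18) and 2 with F5446 (-0.02). Compared with F5446, 5 were higher with chaetocin (0.37) and 5 with romidepsin (0.34). Between chaetocin and romidepsin, 3 were higher with chaetocin (0.03), and none was called in any of these comparisons. With chaetocin COL1A1, a collagen gene, stood 0.41 above DMSO and 0.43 above F5446 (edgeR adjusted p of 1 and 0.9995). Their part in the ACTA2 level was not tested.

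ACTA2 shares its locus with FAS, the death receptor gene, with which it overlaps by 758 bases on the opposite strand in GENCODE 29. It also overlaps its antisense transcript ACTA2-AS1 by 5747 bases, and STAMBPL1. No label or header says whether the counting used strand, so reads from overlapping stretches cannot be assigned to either gene with certainty. Of the 50-base windows of ACTA2 transcripts, 41.3% also occurred in transcripts of other genes, mostly ACTA2-AS1 on the opposite strand, and for ACTG2 the share was 0.0719% with none shared with ACTA2. For CFL1 it was 25.9% and for TPM4 24.3%, also mainly with an antisense neighbour, and for the other 6 genes it was 1.68% to 8.67%. The antisense gene itself had few reads, 59 in the DMSO, 71 in the F5446, 135 in the chaetocin and 120 in the romidepsin libraries. FAS stood at a mean of 110 CPM in DMSO, 123 with F5446, 104 with chaetocin and 96.6 with romidepsin, and over the 13 libraries its log2 level had a Pearson correlation of -0.01 with that of ACTA2. STAMBPL1, with means of 31.8 to 39.1 CPM, had a correlation of 0.10.

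ACTA2 was highest with chaetocin and lowest with romidepsin. Its level in the chaetocin libraries was 741, 693, 869 and 694 CPM in replicates 1 to 4, with a mean of 749 ± 82.8 (SD, n = 4). With DMSO it was 639 and 502 CPM (571 ± 96.5, n = 2) in replicates 1 and 4. With F5446 it was 583, 551.5 and 523 CPM (553 ± 29.7, n = 3) in replicates 2 to 4. With romidepsin it was 479, 368, 401 and 527 CPM (444 ± 72.5, n = 4) in replicates 1 to 4. All 4 chaetocin libraries lay above every other library, while DMSO, F5446 and romidepsin overlapped, the highest romidepsin library lying above the lowest of DMSO and of F5446. The chaetocin and romidepsin levels are those for which ACTA2 was picked, so this order is a description.

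**Figure D2:**
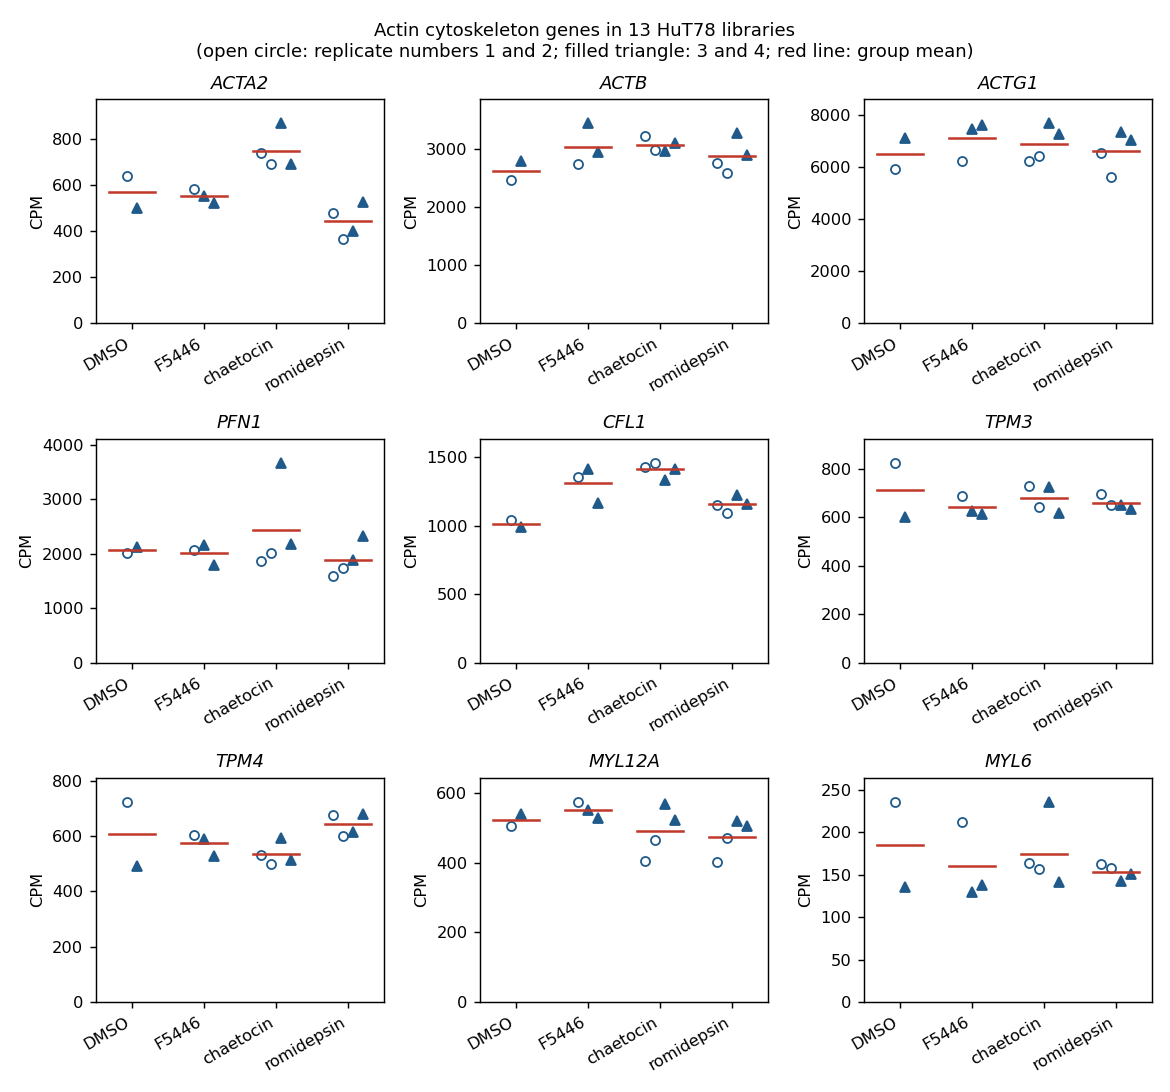
Level of each of the 9 genes in CPM (vertical axes, starting at 0) in each of the 13 libraries, grouped by treatment, with red lines for group means. Open circles are replicate numbers 1 and 2 and filled triangles 3 and 4. ACTA2 with chaetocin sits at 693 to 869 CPM, above all other libraries, and CFL1 with DMSO sits at 989.8 and 1040 CPM, below all others.

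The ACTA2 level with chaetocin exceeded that with romidepsin by 0.75 on the log2 scale (1.69-fold), the difference for which the gene was chosen. It was 0.77 among replicates 1 and 2 and 0.76 among replicates 3 and 4, and 0.68 to 0.85 when any 1 of the 8 libraries was left out. Without chaetocin replicate 3 it was 0.68. Of all 17252 genes tested in this contrast, 16 (0.0927%) passed an adjusted p of 0.05 with edgeR, and with a block for replicate number 144 did. In the same contrast CFL1 was higher by 0.28 with no overlap between libraries, TPM4 was lower by 0.27 on the log2 scale with no overlap, and the other 6 genes overlapped. Of all genes tested, 1.36% were higher and 2.24% lower without overlap. Because the genes were picked on this contrast, nothing further is read from these values.

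Against DMSO, ACTA2 stood 0.39 higher with chaetocin on the log2 scale, given as a description. That difference was 0.17 between the libraries numbered 1 and 2 and 0.63 between those numbered 3 and 4, 0.32 without chaetocin replicate 3, 0.58 without DMSO replicate 1 and 0.23 without DMSO replicate 4. With romidepsin the difference from DMSO was -0.36, with overlapping libraries, and it was -0.61 and -0.13 within the same sets, -0.18 without DMSO replicate 1 and -0.53 without DMSO replicate 4. With F5446 it was -0.05 (95% interval -0.39 to 0.30, edgeR adjusted p = 1), and this difference could be tested because the choice of genes did not rest on F5446. The sign of that last difference changed with the DMSO library, being 0.13 without DMSO replicate 1 and -0.21 without DMSO replicate 4. Against F5446, given at the same dose and for the same time, chaetocin had ACTA2 higher by 0.44 on the log2 scale. Within the sets of replicate numbers this difference was 0.30 (1 and 2) and 0.53 (3 and 4). All 4 chaetocin libraries lay above all 3 F5446 libraries, as they did for 2.28% of all genes tested. ACTA2 was picked for its level with chaetocin, so these values too are a description and nothing is read from the lack of overlap.

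As a share of the reads of ACTA2, ACTB and ACTG1 together, which does not depend on scaling between libraries, ACTA2 followed a like order. The share was 7.25%, 6.87%, 7.54% and 6.27% in chaetocin replicates 1 to 4. It was 4.90%, 4.29%, 3.64% and 5.02% in romidepsin replicates 1 to 4. DMSO replicates 1 and 4 had 7.08% and 4.82%, and F5446 replicates 2 to 4 had 6.10%, 4.81% and 4.71%. The chaetocin and romidepsin libraries did not overlap, whereas DMSO replicate 1 fell among the chaetocin libraries and DMSO replicate 4 among the romidepsin libraries. Between F5446 and DMSO the mean share differed by -0.74 percentage points (exact permutation p = 0.4, two-sided; the smallest possible with 3 against 2 libraries is 0.2).

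**Figure D3:**
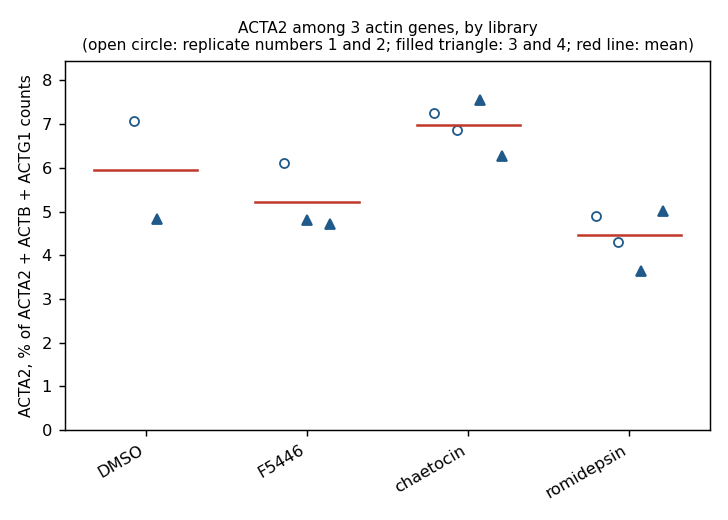
Reads of ACTA2 as a percentage of the reads of ACTA2, ACTB and ACTG1 (vertical axis, starting at 0) in each library by treatment, with red lines for means. Open circles are replicate numbers 1 and 2 and filled triangles 3 and 4. The chaetocin libraries lie between 6.27% and 7.54% and the romidepsin libraries between 3.64% and 5.02%, and the DMSO pair spans both.

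The cytoplasmic actins differed less between treatments. ACTB stood at 2459 and 2793 CPM in DMSO, at 2957 to 3213 CPM with chaetocin, at 2735 to 3437 CPM with F5446 and at 2586 to 3271 CPM with romidepsin. All 4 chaetocin libraries were above both DMSO libraries, a log2 difference of 0.22 (95% interval -0.09 to 0.53, edgeR adjusted p = 1), or 0.33 and 0.12 within the sets of replicate numbers. ACTG1 stood at 5920 and 7122 CPM in DMSO, and its range was 6256 to 7688 CPM with chaetocin, 6233 to 7632 with F5446 and 5617 to 7353 with romidepsin. Its log2 difference between chaetocin and DMSO was 0.08, and the 4 groups overlapped. The enteric actin ACTG2 had means of 1284 CPM in DMSO, 1377 with F5446, 1400 with chaetocin and 1281 with romidepsin, and its log2 difference from DMSO was 0.12 with chaetocin (95% interval -0.17 to 0.42), 0.10 with F5446 and -0.00 with romidepsin (edgeR adjusted p = 1 for each).

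Of the actin-binding proteins, CFL1 was lowest in both DMSO libraries. Its level was 1040 and 989.8 CPM in DMSO replicates 1 and 4. It was 1432, 1459, 1335 and 1415 CPM in chaetocin replicates 1 to 4, 1355, 1415 and 1169 CPM in F5446 replicates 2 to 4, and 1151, 1092, 1226 and 1161 CPM in romidepsin replicates 1 to 4. No treated library came down to the DMSO level. The log2 difference from DMSO was 0.47 with chaetocin (95% interval 0.19 to 0.76, unadjusted p = 0.00204, edgeR adjusted p = 1), 0.37 with F5446 (95% interval 0.08 to 0.66, edgeR adjusted p = 1) and 0.19 with romidepsin (edgeR adjusted p = 1). Within the sets of replicate numbers it was 0.47 and 0.47 with chaetocin, 0.38 and 0.38 with F5446, and 0.11 and 0.27 with romidepsin. None of the 3 passed the main test, and DESeq2 called the chaetocin difference (adjusted p = 0.0211), whereas a block for replicate number (adjusted p = 0.241) and limma-voom (adjusted p = 0.693) did not.

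PFN1 turned on 1 library. Its level was 2019 and 2122 CPM in DMSO, 2073, 2165 and 1785 CPM with F5446, 1594, 1739, 1881 and 2333 CPM with romidepsin, and 1863, 2015, 3671 and 2178 CPM with chaetocin. The value of 3671 CPM belonged to chaetocin replicate 3, the library with the highest mitochondrial share, and the other 3 chaetocin libraries lay within the range of the remaining groups. Its log2 difference between chaetocin and DMSO was 0.23 with that library and -0.04 without it (edgeR adjusted p = 1 with it). As a share of PFN1 and CFL1 reads together, PFN1 took 66.0% and 68.2% in DMSO and 60.4% to 60.5% in the 3 F5446 libraries. That difference of -6.64 percentage points had an exact permutation p of 0.2 (two-sided), the smallest that 3 against 2 libraries can give.

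TPM3, TPM4 and MYL6 differed more between the DMSO libraries than between group means. TPM3 stood at 825 CPM in DMSO replicate 1 and 601 in replicate 4, TPM4 at 723 and 492 CPM, and MYL6 at 236 and 135 CPM. In the treated libraries TPM3 ranged from 612 to 728 CPM, TPM4 from 499 to 678 CPM and MYL6 from 130 to 236 CPM, so DMSO replicate 1 was above all of them for each gene. Within the sets of replicate numbers the log2 differences from DMSO with chaetocin were -0.27 and 0.16 for TPM3, -0.49 and 0.16 for TPM4, and -0.56 and 0.43 for MYL6. MYL12A did not share this and stood at 506 and 542 CPM in DMSO and at 403 to 575 CPM in treated libraries. Its 4 romidepsin libraries lay below the 3 F5446 libraries, a log2 difference of -0.22 (-0.40 and -0.08 within the sets, edgeR adjusted p = 1), where 2.1% of all genes tested were lower without overlap. As a share of TPM3 and TPM4 reads together, TPM3 took 53.3% and 55.0% in DMSO, 48.3% to 52.0% with romidepsin and 54.7% to 57.9% with chaetocin. The romidepsin libraries were all below DMSO by this share (exact permutation p = 0.133, two-sided, the smallest possible with 4 against 2 libraries).

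With edgeR's quasi-likelihood test and adjustment over 17252 genes, no comparison with DMSO called any of the genes tested, for any of the compounds, and the same was true over all genes (0%). The unadjusted p was under 0.05 for 703 genes with chaetocin, 428 with F5446 and 487 with romidepsin, and DESeq2 called 10, 1 and 1 genes and limma-voom 1, 0 and 0. With the block for replicate number edgeR called 10, 0 and 1 genes. Of the 9 genes, 3 lay above DMSO without overlap with chaetocin (ACTA2, ACTB and CFL1), where 5.22% of all genes tested did. ACTA2 was picked for its level with chaetocin, which favoured its place in this count, so nothing is read from the count. With F5446 1 gene, CFL1, lay above DMSO without overlap, against 9.44%, and with romidepsin 1 gene, CFL1, against 5.34%. Chaetocin against F5446 had 0 genes called of 17252 (0%; 587 at an unadjusted p under 0.05, 2 with DESeq2, 0 with limma-voom, 11 with the block), and romidepsin against F5446 had 0 (0%; 424, 0, 0 and 2 in the same order). Comparisons that share the DMSO or the F5446 libraries are not independent of each other.

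**Figure D4:**
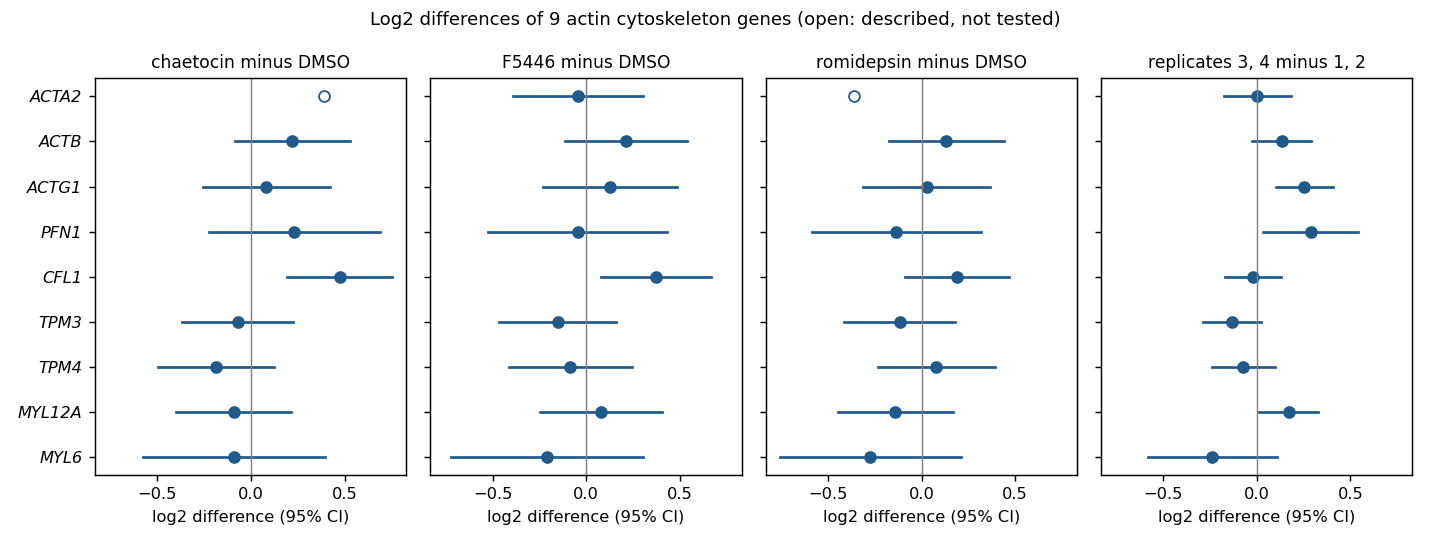
Log2 difference of each gene (horizontal axes) for each compound against DMSO and, at the right, for replicates 3 and 4 against 1 and 2 within treatment. Filled points carry the 95% interval of a tested difference, and open points are descriptions. Most of the tested intervals against DMSO span 0, and CFL1 with chaetocin (0.47) and with F5446 (0.37) do not, although neither passed after adjustment, while at the right ACTG1 (0.25) did.

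The wider actin machinery, taken from lists of genes by function that also hold the 9 genes, gave no called gene against DMSO. Over all genes tested, 51% stood above DMSO with chaetocin, 51.2% with F5446 and 51% with romidepsin. Of 19 tested genes that bind actin monomers or sever filaments, 12 were above DMSO with chaetocin (median log2 difference 0.03, against 0.01 over all genes), 14 with F5446 (0.12) and 13 with romidepsin (0.07). In that list CORO1B, a coronin of the cell edge, had the smallest p with romidepsin (log2 difference -0.48, edgeR adjusted p = 1), and CFL1 had it with chaetocin and F5446. Of 27 genes of the Arp2/3 complex, which starts branched filaments, and of its activators, 14 were above DMSO with each compound, with medians of 0.00, 0.02 and 0.01. ARPC5, an Arp2/3 subunit, had the smallest p of that list with F5446 (log2 difference 0.39, edgeR adjusted p = 1). Of 24 capping, crosslinking and membrane-linking genes, 14, 15 and 14 were above DMSO for chaetocin, F5446 and romidepsin. VASP, which helps filaments elongate, had a log2 difference of 0.44 with F5446 (edgeR adjusted p = 1). Of 11 tropomyosins and other side-binding genes, 4, 4 and 5 were above DMSO, and of 11 nonmuscle myosin II genes and kinases, 4, 7 and 5. Of 21 SRF and cofactor targets, 14, 11 and 12 were above DMSO, on a list that holds ACTA2, picked for its level with chaetocin. FHL1, a LIM-domain gene on that list, was the one with the smallest p with romidepsin (log2 difference 0.60, edgeR adjusted p = 1). FHL1 was also above DMSO with chaetocin (0.43) and with F5446 (0.30). SRF itself differed from DMSO by 0.01, -0.04 and -0.11 on the log2 scale, MRTFA by 0.02, 0.09 and 0.02, and MRTFB by -0.07, -0.26 and 0.16, in the order chaetocin, F5446 and romidepsin. Of 12 tested T cell markers 8 were above DMSO with chaetocin (median log2 difference 0.11), 10 with F5446 (0.25) and 9 with romidepsin (0.07), and none was called. Against that direction CD247, the T cell receptor zeta chain gene, had log2 differences of -0.49 with chaetocin and -0.58 with romidepsin (edgeR adjusted p = 1 for each). With F5446 the CD247 difference was -0.35, so the gene lay below DMSO with every compound.

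Between sets of replicate numbers, compared within treatment, ACTG1 was the one gene of the 9 that was called. The level of ACTG1 was 5617 to 6543 CPM in the 6 libraries numbered 1 or 2 (6165 ± 341). It was 7071 to 7688 CPM in the 7 numbered 3 or 4 (7373 ± 239). The log2 difference was 0.25 (95% interval 0.10 to 0.40, edgeR adjusted p = 0.0163). Over all genes, 2719 of 17252 (15.8%) were called in this comparison, 8.07% higher and 7.69% lower in replicates 3 and 4, so 1 of 9 is near the background. The call was lost without F5446 replicate 2 (adjusted p = 0.0558), without romidepsin replicate 2 (adjusted p = 0.0580) and with scaling to library totals (adjusted p = 0.075). This division of the replicate numbers was taken from an earlier look at the same libraries, so its p-values are not independent of it, and the labels do not say what the numbers stand for.

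ACTA2 did not follow that division, with a log2 difference of 0.00 (95% interval -0.18 to 0.18, edgeR adjusted p = 0.992). PFN1 differed by 0.29 (edgeR adjusted p = 0.125), or 0.15 without chaetocin replicate 3, and was called without F5446 replicate 2 (adjusted p = 0.0408) and with no filter on low counts (adjusted p = 0.00391). MYL6 differed by -0.24 (edgeR adjusted p = 0.371), and without chaetocin replicate 3 it fell by 0.39 on the log2 scale (edgeR adjusted p = 0.00134), and it was also called with no filter (adjusted p = 0.0375). MYL12A differed by 0.17 (95% interval 0.01 to 0.33, edgeR adjusted p = 0.139) and was not called in any alternative run. FAS, which overlaps ACTA2, rose by 0.44 on the log2 scale (edgeR adjusted p = 0.00729).

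Among the wider lists, calls between the sets of replicate numbers are to be read against the 15.8% of all genes called (8.07% higher, 7.69% lower). Of 24 capping, crosslinking and membrane-linking genes 7 rose and none fell, among them EVL (0.39), ACTN1, an alpha-actinin that crosslinks filaments (0.36), and MSN, the moesin that ties filaments to the membrane (0.31, all log2). Of 27 Arp2/3 genes 5 rose and 3 fell. CYFIP1, WASF2 and WIPF1, which act on Arp2/3 activation, rose by 0.76, 0.36 and 0.36, while the subunits ARPC1A (-0.52), ARPC4 (-0.42) and ARPC5L (-0.28) fell. Of 11 myosin II genes 4 rose, with MYH10 at 0.38 and PPP1R12A at 0.39, and ROCK2, a kinase that activates myosin, fell (-0.41). Among 11 tropomyosins and other side-binding genes TPM1 fell (-0.78) and none rose, and DSTN, a relative of cofilin, was the single called gene of the 19 monomer-binding genes (0.29). Of 21 SRF and cofactor targets 5 rose and 2 fell, with EGR1, an immediate early gene, up by 1.16 and MRTFB down (-0.48). Of 12 T cell markers 5 rose and 1 fell, with TRAC, the T cell receptor alpha constant gene, at 0.83, CD4 at 0.44 and CD3E at 0.29. Their part in the differences of the actin genes was not tested.

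Across the 13 libraries, the coefficient of variation of ACTA2 was 24.2%, which includes the difference between chaetocin and romidepsin that the gene was chosen for. PFN1 had 24.2% and MYL6 22.2%, and the lowest of the 9 was 9.35%. Over the 1096 genes with at least the CPM of MYL6, the middle of the distribution (first to last quartile) ran from 9.38% to 16.1%, and 4 of the 9 genes lay below its median. The genes did not vary as 1 group. ACTB followed ACTG1 (Pearson r of log2 CPM 0.64) and CFL1 (0.67), TPM3 followed MYL6 (0.85), and ACTB ran against MYL6 (-0.54), all over 13 libraries that share treatment, normalisation and replicate set. ACTA2 had r = 0.63 with PFN1, 0.56 with CFL1, 0.18 with ACTB and with ACTG1, and -0.24 with TPM4, values that include the treatment difference for which ACTA2 was chosen. After each group's mean was removed, r with ACTA2 was 0.83 for TPM4, 0.62 for MYL6, 0.59 for TPM3, 0.53 for PFN1, 0.12 for ACTG1, 0.11 for CFL1, 0.07 for MYL12A and -0.19 for ACTB. The sign for TPM4 and ACTB thus turned with the centring. ACTG2, the other smooth muscle actin, had r = 0.61 with ACTA2, and 0.59 after centring.

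Among the 10096 genes that averaged 5 CPM or more, those with the pattern most like ACTA2 by Pearson r of log2 CPM over the 13 libraries were PMS2 (0.91), GNA15 (0.88), DUSP15 (0.88), CEP89 (0.87) and FAM206A (0.86). Without the libraries farthest from the ACTA2 median, chaetocin replicate 3 and romidepsin replicate 2, these were 0.86, 0.90, 0.85, 0.84 and 0.70. After each group's mean was removed, the list was a different one, TUBA4A (0.94), RNF8 (0.93), TFIP11 (0.92), AC092070.2 (0.89) and HLA-DPB1 (0.89). None of the other 8 genes was among either list, and the r values describe the top of this long ranking.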

How the data were processed

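RNA was sequenced from HuT78 cells, and the authors deposited raw counts of reads per gene for 13 libraries (hg19). The submitters' processing notes name bcl2fastq 2.20.0.422, cutadapt 1.8.1 and HTSeq 0.6.1. Neither these notes nor the labels name the aligner, the strand setting or the gene annotation. Counts were normalised by TMM and tested with edgeR 4.0.16 (quasi-likelihood, robust; filterByExpr kept 17252 of 45744 genes) over all 4 groups, with Benjamini-Hochberg adjustment over all genes tested and a threshold of 0.05. Log2 CPM used a prior count of 2. The script was tested on simulated data. Libraries held 19901052 to 30816188 counted reads. Intervals rest on a spread estimated over all 4 groups together, with 2 to 4 libraries a group. DESeq2 1.42.0, limma 3.58.1 (voom), other scalings and filters, a replicate block, and leaving out each library were alternatives.

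Libraries with the same replicate number deviated together from their group means. All 15 pairs across groups correlated above 0.1 (0.165 to 0.673), and of 47 pairs with different numbers 16 did. The numbers may pair the libraries, but such pairing was not told apart from the division into sets. A block for replicate number was fitted, but only as an alternative. The main edgeR p-values, intervals and counts between treatments, and the exact permutation tests, did not use this pairing. The pairing comes from the data, as the labels do not explain the numbers. The genes and lists were chosen with earlier results of these data known. Named in the text are the 9 genes, the neighbours of ACTA2 and the 5 genes most like it. From the lists only a selection is named. It holds some genes called between sets of replicate numbers (at most 3 in each direction). It also holds some with the smallest p against DMSO at 5 CPM or more on average. Not every list or comparison has a gene named, and some called genes are not named. SRF, MRTFA, MRTFB against DMSO, COL1A1 against F5446 and the correlation of ACTG2 were named after their values were seen. Promoter sequences are RefSeq GRCh38.p14, searched over 250 bases.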

Additional observations from a re-analysis of the deposited data

How the results depend on the processing

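Of the genes' differences that could be tested, only ACTG1 between sets of replicate numbers was called, and it kept its direction under every alternative run; the sign of several uncalled differences from DMSO turned with the DMSO library left out. The count of called genes depended on the setting. For chaetocin against DMSO (0) it was 10 with DESeq2, 1 with limma-voom, 9 with no filter, 1 with a non-robust fit, 10 with the replicate block, 7 with a term for sets of replicate numbers, and 0 to 2 with a library left out. For F5446 against DMSO (0) it was 1 with DESeq2. For romidepsin against DMSO (0) it was 1 with DESeq2, 5 with no filter, 1 with the block and 1 with the set term. For chaetocin against F5446 (0) it was 2 with DESeq2, 9 with no filter, 11 with the block and 5 with the set term. For romidepsin against F5446 (0) it was 6 with no filter, 2 with only those groups fitted and 2 with the block. For chaetocin against romidepsin (16) it was 62 with DESeq2, 72 with no filter, 7 with only those groups, 144 with the block and 108 with the set term, and 5 to 22 with a library left out, 5 being without romidepsin replicate 2. Between sets of replicate numbers (2719) it was 2060 to 2898 with a library left out. The block changed no call among the 9 genes. The cause of these changes was not tested. With 2 DMSO libraries, leaving out 1 left a lone library assumed to vary like the other groups.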
